A study of Mus musculus with 8 samples.

Results

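Desmosomes and adherens junctions are the cell contacts that hold a stratified epithelium together. The 10 genes described here encode some of their parts. Dsp, Jup, Pkp1 and Pkp3 belong to the desmosomal plaque and Perp to the desmosomal membrane. Dsc2, Dsc3, Dsg1a and Dsg3 are desmosomal cadherins, and Cdh1 belongs to the adherens junction. The genes were taken from a named list, by Ensembl identifier and GENCODE symbol, out of 19857 genes counted. RNA came from cryosections of the median part of the tongue of female mice aged 12 months, 4 of them wild type (WT) and 4 heterozygous for the A17 allele of Pabpn1 (A17/+). The allele models oculopharyngeal muscular dystrophy, a human muscle disease caused by a lengthened alanine tract in PABPN1, which coats poly(A) tails in the nucleus. The labels tie the allele to no promoter, Cre line or cell type. Tongues were sampled whole in section, so each library mixes muscle, epithelium and connective tissue. A lower level in such a library cannot be told apart as fewer cells of a type or less RNA per cell.

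In a desmosome, cadherins of the desmocollin (Dsc) and desmoglein (Dsg) families meet those of the neighbouring cell outside the membrane. Inside it, plakoglobin (Jup) and the plakophilins (Pkp) tie the cadherin tails to desmoplakin (Dsp), which in turn anchors keratin filaments. PERP is a tetraspan membrane protein that stratified epithelia need for stable desmosomes, and its gene is also a target of p53 and p63. E-cadherin (Cdh1) forms the adherens junction, where catenins link it to actin. In the tongue these genes are known from the keratinised epithelium that covers the muscle, while muscle fibres join their surroundings through other complexes.

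Libraries were made with mcSCRB-seq, which counts RNA molecules by unique molecular identifiers (UMIs) from their 3' ends, and they held 205696 to 485326 UMIs. The replicates were separate animals according to the labels. Levels are given as CPM, UMI counts brought to a common library total with TMM factors. Differences are log2 fold changes of A17/+ minus WT from edgeR's quasi-likelihood test, with p-values adjusted by the method of Benjamini and Hochberg over 5066 genes and a threshold of 0.05. WT 1 stood apart from the other WT libraries. Genes of the lingual salivary glands summed to 924 UMIs there, against 0 to 3 in the other WT libraries and 7 to 20 in A17/+. It also had the highest level of the macrophage gene Lyz2 in WT (269 CPM) and the lowest sum of hemidesmosome and basal adhesion genes (801 CPM). Genes whose longest annotated transcript is under 1000 nt took 4.55% ± 0.993 of the UMIs in WT and 7.17% ± 0.999 in A17/+ (SD, n = 4). The groups overlapped, with 6.03% in WT 1 and 5.82% in A17/+ 1.

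The comparison asked whether the junction genes of the tongue differed between A17/+ and WT. Dsp, Perp, Dsc3, Dsg3 and Cdh1 fell in A17/+, to between 0.509 and 0.621 of their WT level, and Jup, Pkp1, Pkp3, Dsc2 and Dsg1a did not pass the threshold. All 10 genes passed the filter on low counts. Thus 5 of 10 were lower and 0 were higher, where 8.94% of all genes tested were called, 2.61% lower and 6.34% higher. The 10 genes were chosen with earlier results of these data known, so the shares are a description. An unadjusted p under 0.05 was found for these 5 genes and for 25.1% of all genes tested. The same 5 genes had all 4 A17/+ libraries below all 4 WT libraries, an arrangement seen for 6.75% of the genes tested. None of the 10 had the reverse arrangement, seen for 8.17%, and 14.9% of the genes tested had either. The median log2 fold change was −0.54 over the 10 genes and 0.01 over all genes tested. Scaled by library totals alone, all genes tested had a median of −0.11, and 289 genes were called lower, against 132 with TMM. This scaling moved the 5 genes further down, for Dsp from −0.85 to −0.97. Their lower calls under it are therefore no separate check. Dsp, Perp, Dsc3 and Cdh1 passed the threshold under all 21 alternatives that were run, whereas Dsg3 passed under 10 of them. Without WT 1 all 5 passed, and the same held without both libraries numbered 1.

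**Figure D1:**
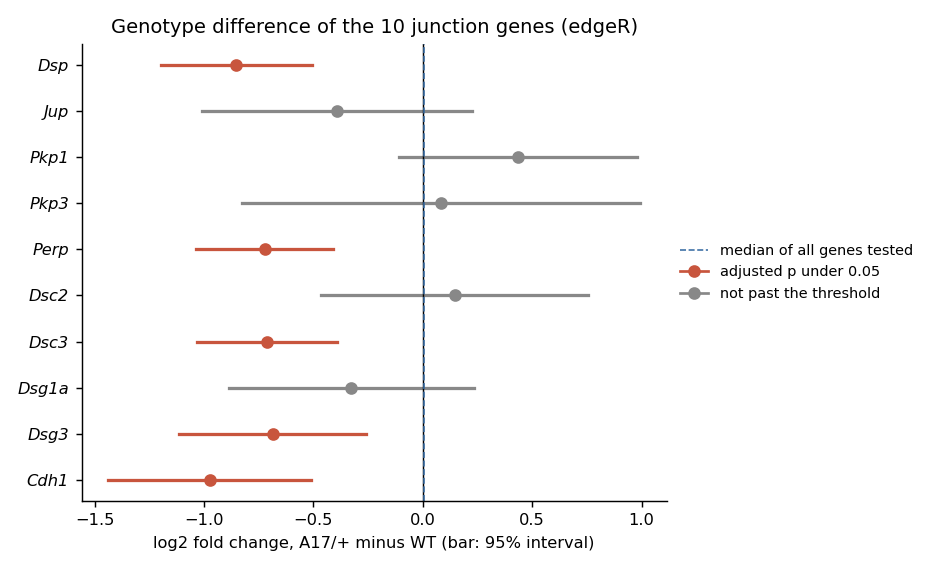
Log2 fold change of A17/+ minus WT for the 10 junction genes (points), with 95% intervals as bars from edgeR. The intervals of Dsp, Perp, Dsc3, Dsg3 and Cdh1 lie wholly below 0, and those of Jup, Pkp1, Pkp3, Dsc2 and Dsg1a cross 0.

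Dsp encodes desmoplakin, the plaque protein that binds keratin filaments, and lies on mm10 chromosome 13 (38151294 to 38198577, plus strand). Its level was 3854, 4764, 5197 and 4510 CPM in WT 1 to 4. The A17/+ libraries 1 to 4 had 2243, 3039, 2427 and 2278 CPM. No A17/+ library reached the lowest WT library, WT 1. The mean fell from 4581 ± 561 to 2497 ± 370 CPM (SD, n = 4), a log2 fold change of −0.85 with a standard error of 0.16 (edgeR adjusted p = 0.00553). The 95% interval of the fold was 0.436 to 0.704. Dsp alone supplied 60.6% ± 2.71 of the UMIs of the 10 genes in WT and 55.6% ± 2.78 in A17/+ (SD, n = 4), and the summed level of the 10 was 7554 ± 724 CPM and 4492 ± 580 CPM, respectively. Dsp alone fell by 2084 CPM.

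RefSeq promoter windows (GRCm38.p6, the mm10 sequence, 250 bases before to 50 after the start) matched 2 of the 10 genes, Dsp and Jup. They are shown because the other genes had no window. Whether the marked letters bear on the level of either gene was not tested. Capitals mark matches on either strand to the GC box GGGCGG, the E-box CAGGTG and the CCAAT box.
Dsp, chr13:38151044-38151343, plus strand: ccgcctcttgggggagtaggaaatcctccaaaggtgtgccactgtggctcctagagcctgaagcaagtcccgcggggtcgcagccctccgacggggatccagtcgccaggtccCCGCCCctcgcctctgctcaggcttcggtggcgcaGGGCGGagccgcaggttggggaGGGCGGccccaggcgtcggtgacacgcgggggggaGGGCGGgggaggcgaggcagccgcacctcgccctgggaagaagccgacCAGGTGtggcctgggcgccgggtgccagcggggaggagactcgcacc
Jup, chr11:100397741-100398040, minus strand: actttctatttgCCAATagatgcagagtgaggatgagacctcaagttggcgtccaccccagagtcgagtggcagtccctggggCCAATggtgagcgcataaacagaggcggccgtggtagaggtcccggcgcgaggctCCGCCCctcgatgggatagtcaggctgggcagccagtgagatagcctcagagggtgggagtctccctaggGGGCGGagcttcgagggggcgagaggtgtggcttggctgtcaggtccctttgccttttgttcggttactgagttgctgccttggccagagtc
The Dsp window held 4 GC boxes and 1 E-box, and its GC content was 73.0%. The Jup window held 2 GC boxes and 2 CCAAT boxes at a GC content of 60.7%. Of all 32851 windows, 35.7% held a GC box, 20.2% this E-box and 37.4% a CCAAT box, and the median GC content was 52.7%. None of the marked matches overlapped another. These are letter matches in the reference sequence and no factor was measured there.

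Jup encodes plakoglobin, the plaque protein that binds both desmosomal and classical cadherins (mm10 chromosome 11, 100368958 to 100397763, minus strand). WT 1 to 4 had 139, 269, 236 and 176 CPM, and A17/+ 1 to 4 had 82.2, 225, 179 and 130 CPM. The groups overlapped, with A17/+ 1 lowest and WT 2 highest. The means were 205 ± 58.6 and 154 ± 61.9 CPM (SD, n = 4), and the log2 fold change of −0.39 did not pass the threshold (edgeR adjusted p = 0.434). Its 95% interval ran from −1.01 to 0.23, which includes changes as large as that of Dsp.

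Pkp1 encodes plakophilin 1, the plaque protein of suprabasal keratinocytes that clusters desmosomal cadherins (mm10 chromosome 1, 135871395 to 135919207, minus strand). Its levels were 175, 219, 119 and 126 CPM in WT 1 to 4 and 127, 251, 218 and 270 CPM in A17/+ 1 to 4. A17/+ 1 lay among the WT libraries, whereas A17/+ 2 and 4 lay above all of them and A17/+ 3 just below WT 2. The log2 fold change of 0.44, with a 95% interval from −0.11 to 0.98, did not pass (edgeR adjusted p = 0.311). The closest it came was an adjusted p of 0.0616 without both libraries numbered 1, where the log2 fold change was 0.67. A predicted gene on the same strand, Gm36938, lies within Pkp1 and held 14 UMIs over all libraries.

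Pkp3, plakophilin 3, binds the widest range of desmosomal proteins among the plakophilins and had few UMIs, 100 over all 8 libraries (mm10 chromosome 7, 141078218 to 141090510, plus strand). Levels in WT 1 to 4 were 28.5, 32.5, 40.8 and 30.2 CPM. In A17/+ 1 to 4 they were 12.3, 65.8, 41.0 and 20.8 CPM, and the highest and lowest of all 8 libraries were both A17/+. The 95% interval of its log2 fold change ran from −0.83 to 0.99 and included 0 (edgeR adjusted p = 0.930).

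**Figure D2:**
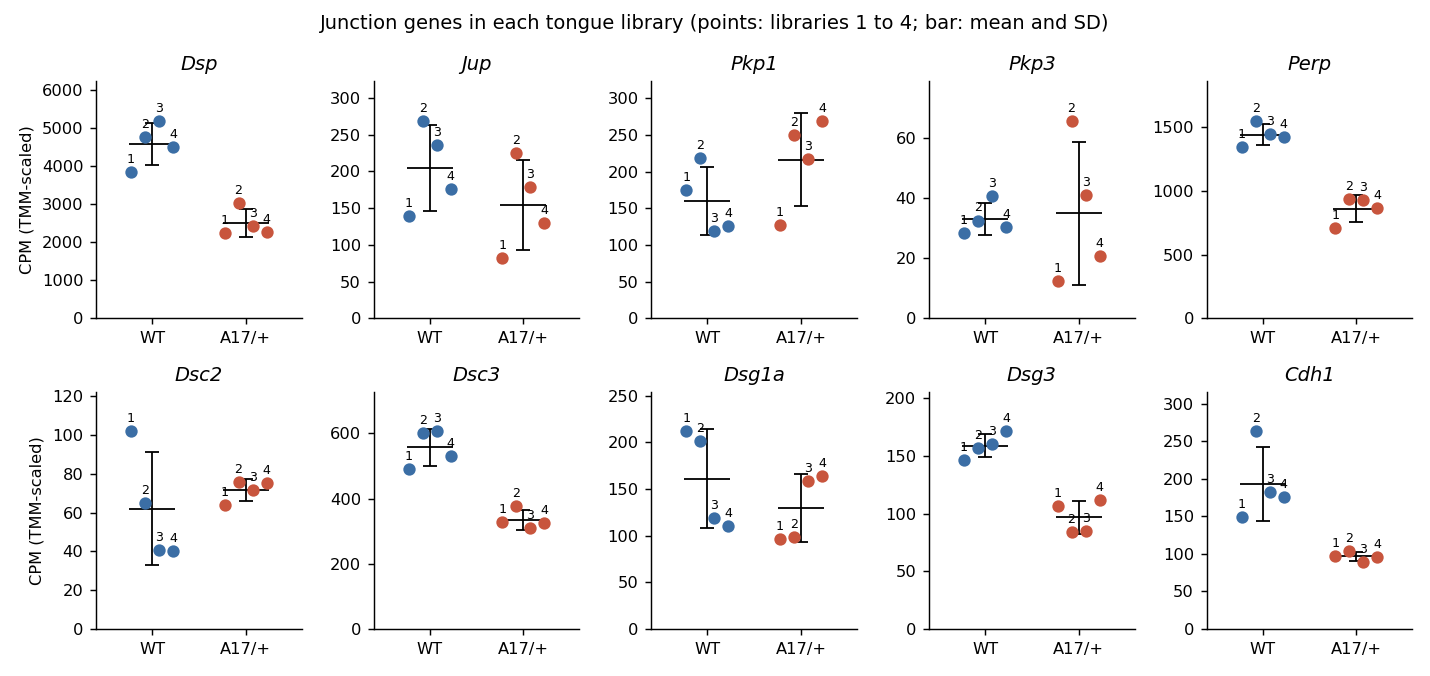
Level of each junction gene in CPM with TMM scaling (vertical axes, each from 0) in the 4 WT and 4 A17/+ libraries. Points are libraries with their replicate number, and bars give the mean and SD. The 2 genotypes separate for Dsp, Perp, Dsc3, Dsg3 and Cdh1 and overlap for Jup, Pkp1, Pkp3, Dsc2 and Dsg1a.

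Perp lies on mm10 chromosome 10 (18845020 to 18857073, plus strand). WT 1 to 4 had 1347, 1553, 1449 and 1426 CPM, and A17/+ 1 to 4 had 709, 940, 929 and 867 CPM. The gap between the groups was wider than the spread inside either, and A17/+ 1 was the lowest library. The mean fell from 1444 ± 85.0 to 861 ± 107 CPM (SD, n = 4), a log2 fold change of −0.72 with a standard error of 0.15 (edgeR adjusted p = 0.00796). The fall amounted to 39.4%, with a 95% interval of the fold from 0.487 to 0.753.

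The 4 desmosomal cadherins lie in 1 gene cluster on chromosome 18, and 2 of them fell. Dsc3, the desmocollin of basal and lower layers, had 491, 601, 606 and 529 CPM in WT 1 to 4 and 327, 377, 310 and 324 CPM in A17/+ 1 to 4. The groups did not overlap, and the A17/+ libraries spanned a narrow range. Its mean fell from 557 ± 56.1 to 335 ± 29.5 CPM (SD, n = 4; log2 fold change −0.71, standard error 0.15, edgeR adjusted p = 0.00873). Dsg3, the desmoglein that is the antigen of pemphigus vulgaris in people, had 147, 157, 160 and 171 CPM in WT 1 to 4 and 107, 83.6, 84.5 and 112 CPM in A17/+ 1 to 4. Here too every A17/+ library lay below every WT library. The mean fell from 159 ± 10.1 to 96.6 ± 14.7 CPM (SD, n = 4), with a log2 fold change of −0.69 and an edgeR adjusted p of 0.0423. The Dsg3 call lay near the threshold: leaving out WT 2, WT 3 or WT 4 gave edgeR adjusted p of 0.0790, 0.0902 and 0.0712, and leaving out A17/+ 2, 3 or 4 gave 0.0690, 0.140 and 0.0681. It was 0.0594 with no filter, 0.0585 with DESeq2 and 0.256 after all libraries were thinned to the smallest. Its log2 fold change stayed between −0.80 and −0.49 under all 21 alternatives.

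Dsc2, the desmocollin that most epithelia and the heart make, had 102, 65.1, 40.8 and 40.3 CPM in WT 1 to 4 and 63.7, 76.0, 71.7 and 75.3 CPM in A17/+ 1 to 4. WT 1 was highest and WT 3 and 4 were lowest, so that the WT libraries enclosed all of the A17/+ ones. The log2 fold change of 0.15 had a 95% interval from −0.46 to 0.76 (edgeR adjusted p = 0.804). Dsg1a, 1 of the mouse copies of the desmoglein 1 gene of upper layers, had 212, 201, 119 and 111 CPM in WT 1 to 4 and 96.5, 98.8, 159 and 163 CPM in A17/+ 1 to 4. Both groups were split, with WT 1 and 2 above WT 3 and 4 and A17/+ 3 and 4 above A17/+ 1 and 2. Its log2 fold change was −0.33 (95% interval −0.89 to 0.23, edgeR adjusted p = 0.480). Dsg1b, the neighbouring copy, is similar in sequence, so the assignment of reads between the copies is uncertain, and it was not examined. Dsg1c, another copy, was not among the genes counted.

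Cdh1 encodes E-cadherin (mm10 chromosome 8, 106603351 to 106670246, plus strand) and had the lowest log2 fold change of the 10 genes. Perp was lower than Cdh1 with the length trend removed, and Dsp was lower without WT 2 (−0.88 against −0.82). Levels were 149, 263, 182 and 176 CPM in WT 1 to 4 and 96.5, 104, 89.6 and 96.0 CPM in A17/+ 1 to 4. The A17/+ libraries lay close together and below WT 1, the lowest WT library. The mean fell by 49.1%, from 193 ± 49.3 to 96.5 ± 5.82 CPM (SD, n = 4), a log2 fold change of −0.97 with a standard error of 0.22 (edgeR adjusted p = 0.0113). Under the 21 alternatives it ran from −1.12 to −0.82, with adjusted p up to 0.0454.

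Levels were also set against each other per length, as CPM per kilobase of the longest annotated transcript, although the method counts 3' ends and a transcript's length need not scale its counts. In WT the order was Perp (740 ± 43.5 CPM per kilobase, SD, n = 4), Dsp (478 ± 58.5), Dsc3 (104 ± 10.5), Jup (64.0 ± 18.3), Cdh1 (43.5 ± 11.1), Pkp1 (34.2 ± 9.98), Dsg1a (28.3 ± 9.34), Dsg3 (25.6 ± 1.63), Dsc2 (13.4 ± 6.26) and Pkp3 (11.3 ± 1.87). The libraries of Perp, Dsp, Dsc3 and Jup did not overlap from one to the next, and neither did those of Dsg3 and Dsc2. The remaining neighbours in that order overlapped. In A17/+ the first 4 places were the same, Pkp1 stood before Cdh1 at 46.3 ± 13.5 against 21.8 ± 1.31 CPM per kilobase, and the libraries of Dsc3 and Jup overlapped.

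Ratios of UMIs within a library do not depend on the scaling between libraries. For every 100 UMIs of Dsp there were 12.2 ± 0.567 of Dsc3 in WT and 13.5 ± 1.06 in A17/+ (SD, n = 4), and 31.8 ± 2.95 of Perp in WT and 34.7 ± 4.00 in A17/+. Both ratios overlapped between the genotypes, as did that of Cdh1, at 4.20 ± 0.902 and 3.91 ± 0.424. The ratio of Pkp1 differed. WT 1 to 4 had 4.55, 4.60, 2.30 and 2.79 UMIs of Pkp1 per 100 of Dsp. A17/+ 1 to 4 had 5.68, 8.25, 8.97 and 11.8. Every A17/+ library lay above every WT library in this ratio. Dsp itself fell, and any gene that does not fall with it rises in such a ratio. The level of Pkp1 alone did not pass the threshold. Per 100 UMIs of Krt14, Pkp1 had 13.2 ± 4.81 in WT and 23.7 ± 7.01 in A17/+, and the genotypes overlapped. Within the desmoglein 1 copies, Dsg1a made up 25.8%, 23.5%, 23.6% and 24.7% of the UMIs of Dsg1a and Dsg1b in WT 1 to 4. The A17/+ libraries had 30.1%, 37.1%, 33.9% and 40.1%. That share did not overlap between the genotypes either. Dsg1b was called lower and Dsg1a was not, and the assignment of reads between the copies is uncertain. These ratios are descriptions and were not tested.

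**Figure D3:**
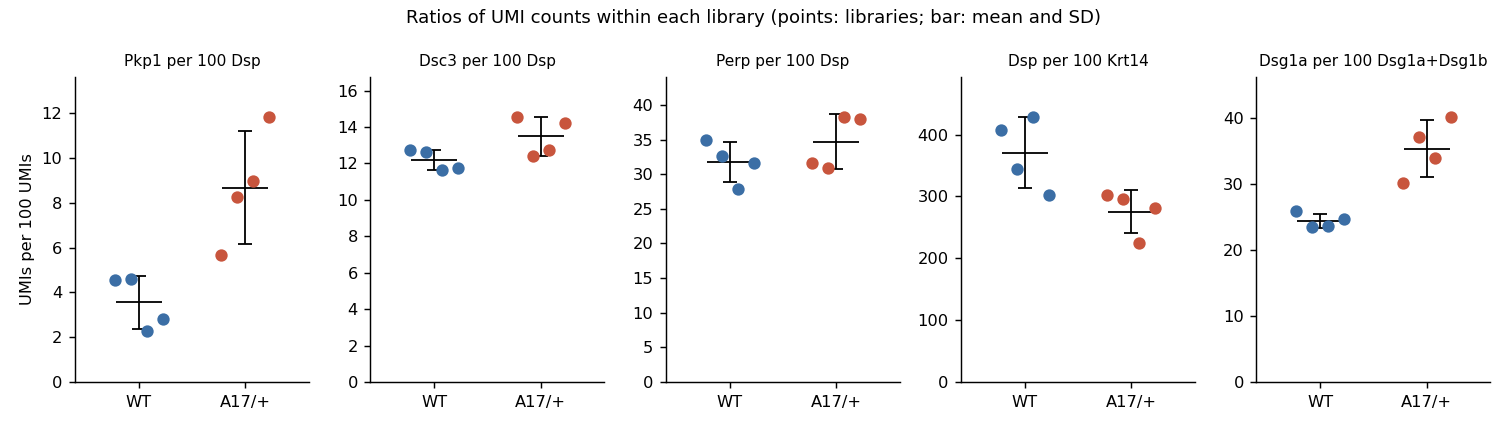
UMIs of 1 gene per 100 UMIs of another in each library (vertical axes, each from 0), for WT and A17/+. Points are libraries, and bars give the mean and SD. Pkp1 per 100 Dsp and the Dsg1a share are higher in every A17/+ library. Dsp itself fell, and the assignment of reads between Dsg1a and Dsg1b is uncertain. Dsp per 100 Krt14 is lower in every A17/+ library by a small margin (WT 4 at 302.4, A17/+ 1 at 301.7). The other 2 ratios overlap.

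Over the 8 libraries, which include both genotypes, the genes that fell ran together. Pearson correlations of log2 CPM were 0.99 between Dsp and Dsc3, 0.95 between Dsp and Perp, 0.92 between Dsp and Cdh1 and 0.81 between Dsp and Dsg3. Pkp1 and Dsc2 had −0.39 and −0.47 with Dsp and 0.68 with each other. Jup and Pkp3 had 0.83. All of these rest on the same 8 libraries, and the difference between the genotypes is part of them.

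Some other genes of the desmosome and its plakins were lower as well. Of 12 such genes listed, 7 passed the filter, 4 of these fell and 0 rose, with a median log2 fold change of −0.80. Of all genes tested 2.61% were lower. Cdsn (log2 fold change 0.19), Dst (−0.25) and Plec (−0.79) did not pass. Ppl (periplakin) and Evpl (envoplakin), plakins that link desmosomes to the cornified envelope, fell from 1750 ± 232 to 987 ± 156 CPM and from 495 ± 134 to 268 ± 63.6 CPM (SD, n = 4; log2 fold changes −0.80 and −0.85). Dsg1b fell from 497 ± 158 to 236 ± 58.8 CPM (log2 fold change −1.07, edgeR adjusted p = 0.0102), with the assignment of reads between it and Dsg1a uncertain. Dsc1, the desmocollin of upper layers, fell from 580 ± 177 to 297 ± 94.1 CPM (log2 fold change −0.96, edgeR adjusted p = 0.0324). Evpl and Dsc1 overlapped between the genotypes and passed in 14 and 16 of 21 alternatives. The count of 4 was 2 without WT 2, 2 without WT 3 and 2 with limma-voom.

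Among the other adherens junction genes, 15 of 28 listed passed the filter, 1 fell and 0 rose, and their median log2 fold change was 0.05. The gene that fell was Lima1, an actin-binding protein of the cadherin and catenin complex, from 328 ± 39.4 to 182 ± 53.9 CPM (SD, n = 4; log2 fold change −0.81, edgeR adjusted p = 0.0247). It did not pass without WT 3, WT 4, A17/+ 3 or A17/+ 4. Many genes of this list, the catenins included, are made by muscle and vessels too. Of the hemidesmosome and basal adhesion genes, 6 of 10 passed the filter, 2 fell and 0 rose. Lama3, a chain of the laminin of the epithelial basement membrane, fell from 208 ± 40.0 to 113 ± 14.7 CPM, and Col17a1, the hemidesmosomal collagen, from 366 ± 56.2 to 241 ± 14.7 CPM (log2 fold changes −0.84 and −0.58). That count of 2 was 0 without WT 2 or without A17/+ 4, and 1 without WT 3 or A17/+ 3, with limma-voom and with the keratin covariate. The count of genes that rose was 1 without A17/+ 1 and without both libraries numbered 1.

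Tight junction genes, whose products seal the space between cells, had 5 of 18 listed genes past the filter, of which 3 fell and 0 rose. They were Cgn (cingulin, log2 fold change −1.08), Patj (−0.93) and Pard3 (−0.83), which organise the cytoplasmic side of the junction and cell polarity. Cgn went from 141 ± 28.9 to 64.5 ± 11.5 CPM (SD, n = 4; edgeR adjusted p = 0.00914). The count of 3 was 1 without WT 3 and 1 without A17/+ 3. It was 2 without A17/+ 4, with the replicate block and with thinned counts. It was 4 with library totals, with limma-trend, without WT 1, without A17/+ 1 and without both libraries numbered 1.

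**Figure D4:**
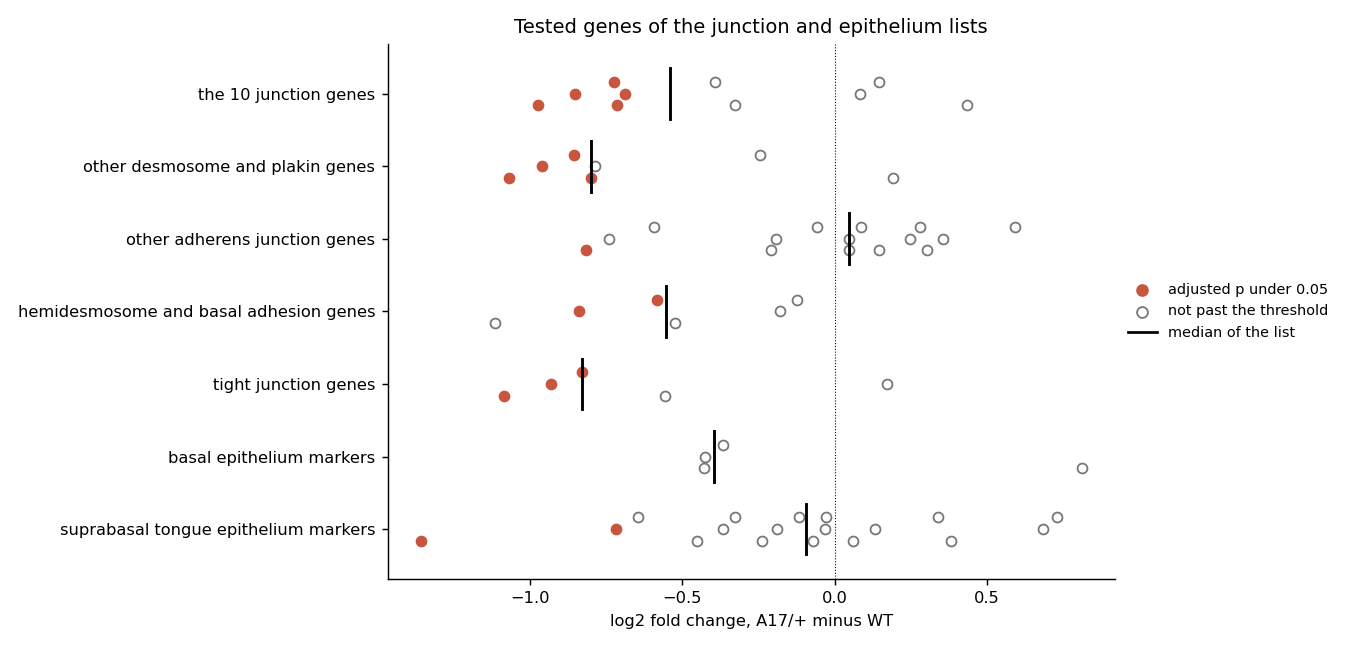
Log2 fold change of A17/+ minus WT (horizontal axis) for the tested genes of each list. Filled points passed the threshold of adjusted p under 0.05, open points did not, and black lines are medians. The medians are −0.54 for the 10 junction genes, −0.80 for the other desmosome and plakin genes and 0.05 for the other adherens junction genes.

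Markers of the epithelium itself gave a mixed picture beside the junction genes. Of the 4 basal epithelium markers 0 passed, and their summed level was 1639 to 2207 CPM in WT and 1282 to 2196 CPM in A17/+. Krt14, the keratin of basal cells, averaged 1258 ± 238 CPM (WT) and 917 ± 164 CPM (A17/+; SD, n = 4; log2 fold change −0.43, edgeR adjusted p = 0.140), and its partner Krt5 had 244 ± 54.9 and 429 ± 177 CPM (log2 fold change 0.81, edgeR adjusted p = 0.0942). Each passed in 4 of 21 alternatives. Among these, Krt14 had −0.58 without WT 1 (edgeR adjusted p = 0.0236) and −0.91 with the length trend removed (edgeR adjusted p = 0.00429). Krt5 had 0.99 without A17/+ 1 (edgeR adjusted p = 0.00286). The count of basal markers lower was 2 without WT 1, 2 with the length trend removed, and 1 without A17/+ 2, with library totals and with limma-trend. Of 21 suprabasal markers 18 passed the filter, 2 fell and 0 rose. Krt10 fell from 361 ± 61.6 to 139 ± 39.8 CPM (log2 fold change −1.36) and Krt76 from 1939 ± 316 to 1158 ± 161 CPM (log2 fold change −0.72). The summed level of the suprabasal list was 9943 to 10894 CPM in WT and 7607 to 14985 CPM in A17/+. Krt4 and Krt13, the most abundant keratin pair of the list and chosen after their values were seen, had log2 fold changes of 0.38 and 0.68 (edgeR adjusted p = 0.227 and 0.0501). Krt13 passed as higher in 9 of 21 alternatives, and the count of suprabasal markers that rose was 1 without WT 1, 2 without A17/+ 1 and 4 without both libraries numbered 1.

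Set against keratin UMIs of the same library, Dsp had 408, 345, 429 and 302 UMIs per 100 of Krt14 in WT 1 to 4. The A17/+ libraries had 302, 296, 224 and 281. The groups touched, with WT 4 at 302.4 just above A17/+ 1 at 301.7. Per 100 UMIs of Krt5, Krt14 and Krt15 together, Dsp had 244 ± 25.6 in WT and 157 ± 23.8 in A17/+, and Perp had 77.3 ± 7.95 and 54.0 ± 6.46 (SD, n = 4). Both were lower in every A17/+ library, but the sum includes Krt5, whose log2 fold change was above 0. Per 100 UMIs of Krt14 alone, the genotypes overlapped for Perp (117 ± 19.4 in WT and 94.8 ± 8.84 in A17/+) and for Dsc3 (45.2 ± 7.44 and 37.3 ± 6.50). With the summed level of these 3 keratins as a covariate, the log2 fold changes were −0.73 for Dsp, −0.62 for Perp, −0.64 for Dsc3, −0.74 for Dsg3 and −0.86 for Cdh1. All 5 genes passed the threshold in that fit, with edgeR adjusted p from 0.00383 to 0.0370. The covariate sums keratins with log2 fold changes of 0.81 (Krt5), −0.43 (Krt14) and −0.43 (Krt15). Whether it follows the amount of epithelium was not tested. Neither the ratios nor the covariate took transcript length into account. The longest transcripts were 1698 to 2197 nt for these keratins and 9592 nt for Dsp. With the length trend removed Krt14 had a log2 fold change of −0.91. In that fit Dsp (−0.75), Dsc3 (−0.70) and Dsg3 (−0.64) fell less than Krt14, and Perp (−1.07) and Cdh1 (−0.99) fell more.

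Among markers of other tissues in the section, only muscle fibre genes passed the threshold. Of 10 skeletal muscle fibre genes 5 rose and 0 fell, where 6.34% of all genes tested were higher. The 5 that rose had longest transcripts of 1079 to 3028 nt. The genes of 6016 nt or more did not pass. These were Ttn (log2 fold change 0.13), Neb (0.23), Myh1 (0.52), Myh2 (0.43) and Myh4 (−0.01). Acta1, skeletal actin, rose by 1.68 on the log2 scale and Des, the muscle intermediate filament, by 1.31. Ckm, which buffers energy in fibres, rose by 1.09, and fast troponin T (Tnnt3) by 1.18. With the length trend removed Tnnt3 had 0.30 and did not pass (edgeR adjusted p = 0.398). The summed level of the muscle list was 76899 to 105340 CPM in WT and 95500 to 117330 CPM in A17/+. None of the 6 endothelium markers tested passed, the 2 most abundant being Tek (log2 fold change −0.29) and Kdr (0.40). Neither of the 2 immune markers tested passed, Lyz2 with 0.93 and Cd74 with 0.42. Lyz2 had 132 UMIs in WT 1 and 17 to 30 in the other WT libraries, and without WT 1 its log2 fold change was 1.66 and passed (edgeR adjusted p = 0.000867). It passed in 5 of 21 alternatives, with log2 fold changes from 0.30 to 1.72 over all of them. Of the salivary gland list 0 genes passed the filter, and Dmbt1 had 0 UMIs in all libraries other than WT 1. The part of these differences in the junction gene result was not tested.

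Transcript length moved with the genotype difference across all genes, and the junction genes were compared with it. The median log2 fold change was 1.34 over 132 genes with a longest transcript under 1000 nt and −0.11 over 576 genes of 8000 nt or more. Dsp, with 9592 nt, belongs to the latter class, in which 3.65% of genes were lower. Perp, with 1952 nt, fell although the median of its class of 1000 to 2000 nt was 0.29. Cdh1, Dsc2, Dsc3, Dsg1a and Pkp1 belong to the class of 4000 to 6000 nt, whose median was −0.05. With a length trend removed from each library, the log2 fold changes were −0.75 for Dsp, −1.07 for Perp, −0.70 for Dsc3, −0.64 for Dsg3 and −0.99 for Cdh1. In that fit Dsg3 did not pass (edgeR adjusted p = 0.0515) and the other 4 did.

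**Figure D5:**
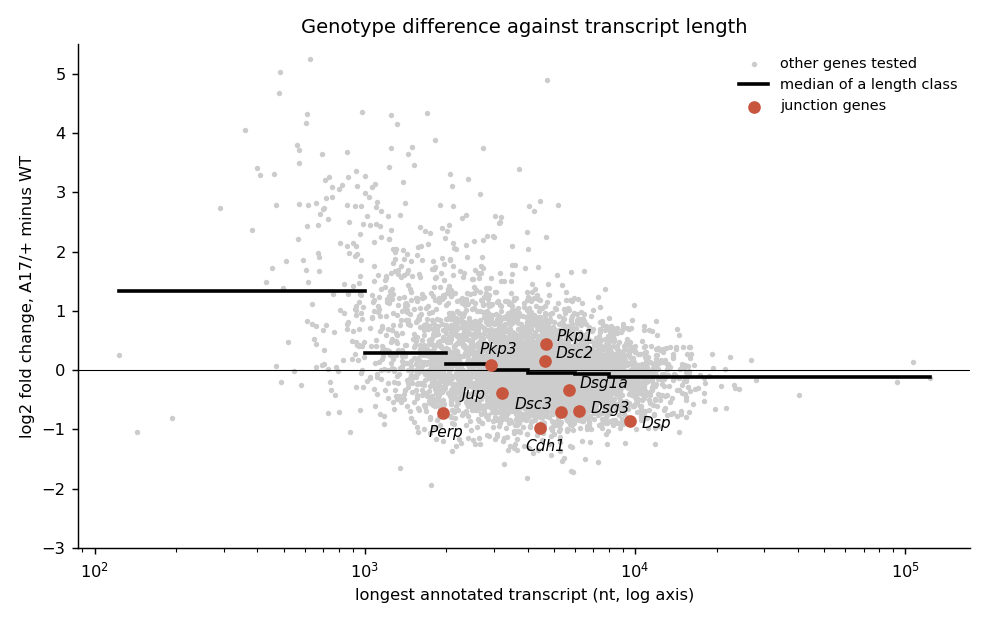
Log2 fold change of A17/+ minus WT against the longest annotated transcript (log axis, nt) for all genes tested (grey), with the 10 junction genes in red and the median of each length class as a black line. The class medians run from 1.34 under 1000 nt to −0.11 at 8000 nt or more, and Dsp and Perp lie below the medians of their classes.

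The genes whose profile over the 8 libraries was most like the mean standardised profile of the 10 junction genes were Smad5 (Pearson r = 0.96), Rptn (0.95), Dnajb1 (0.94), Crnn (0.94), Kctd5 (0.94), Ftx (0.93), Myo1e (0.92) and Klf4 (0.92). Rptn (repetin) and Crnn (cornulin) encode proteins of the cornified layer, and Klf4 a transcription factor of differentiating epithelium. Rptn fell from 2177 ± 145 to 1336 ± 254 CPM (SD, n = 4; log2 fold change −0.68, edgeR adjusted p = 0.0165), and Kctd5 fell with −0.86 (edgeR adjusted p = 0.0424). Kctd5 passed in 8 of 21 alternatives, with adjusted p up to 0.120, and did not pass without WT 1, 2 or 3 or without A17/+ 1, 3 or 4. Rptn did not pass without WT 3 (edgeR adjusted p = 0.0544). The other 6 had log2 fold changes from −0.77 to −0.43 and did not pass. These likenesses rest on 8 libraries and include the difference between the genotypes.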

How the data were processed

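Per the labels' protocols, total RNA was made into barcoded cDNA with mcSCRB-seq and sequenced on a NovaSeq. The submitters' processing notes name cutadapt 2.10, STAR 2.7.5a, UMI-tools 1.1.1, HTSeq and the build mm10; strand, settings and annotation release are not given in the sources used here. The authors deposited raw UMI counts per gene, used here, and log2 values of 10709 genes per library, used in 1 alternative. Of 19857 identifiers 19677 had a symbol in GENCODE M21. Genes were filtered with filterByExpr (minimum count 10, minimum total 15), scaled by TMM and fitted with edgeR 4.0.16 (robust quasi-likelihood, genotype only) in R 4.3.3, tested on simulated data beforehand. Alternatives used DESeq2 1.42.0 and limma 3.58.1. CPM divide by the full library total times the TMM factor. Library totals of 205696 to 485326 UMIs leave low genes with few molecules each.

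The members and lists were chosen with earlier results of these data known. Besides the members, the text names up to 4 genes of each list with the smallest p past the threshold, or the 2 most abundant where none passed, and the 8 genes most alike. Replicate numbers served as a block only in an alternative.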

Additional observations from a re-analysis of the deposited data

Results flagged for a closer look

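None of the 10 junction genes had a library far from the other 3 of its group. Of 104 groups tested by Dixon's criterion for 4 values, which flags about 1 group in 20 by chance, 7 had such a library. In WT 4, Ckm was highest of its group at 1512 CPM, Tek highest at 146 CPM, Rptn lowest at 1960 CPM and Ftx lowest at 35.3 CPM. In WT 1, Lyz2 was highest at 269 CPM, the summed salivary gland genes highest at 1883 CPM and the summed hemidesmosome and basal adhesion genes lowest at 801 CPM.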

How the results depend on the processing

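The 21 alternatives were other scalings, filters and tests, the replicate block, the keratin covariate, the length trend, thinned counts, each library left out, both libraries numbered 1 left out, and limma-trend on the deposited log2 values, the last chosen after seeing the data. The count of junction genes lower was 4 or 5 in each, 4 to 5 over the libraries left out. Of the 453 genes called, 321 were higher and 132 lower. Totals, higher and lower were 853, 615 and 238 with no filter, 228, 145 and 83 with limma-voom, 1025, 695 and 330 without both libraries numbered 1, and 797, 538 and 259 with limma-trend. With library totals only, 279 were higher and 289 lower, and with the length trend removed 253 and 255. Leaving out 1 library gave 210 to 890 genes, 172 to 586 higher and 38 to 383 lower. The causes were not tested. Pkp3, which passed in none, had log2 fold changes of −0.041 with library totals, −0.22 with limma-voom, −0.010 with the replicate block, −0.052 with the length trend removed, −0.18 with limma-trend and −0.43 to 0.35 with 1 library left out. Dsc2 had −0.035 to 0.51 with 1 library left out, below 0 without WT 3 or WT 4, and Cd74 −0.21 with the length trend removed. Equal replicate numbers did not vary together (correlations of deviations −0.16 to 0.07), and the replicate block gave 410 genes and ended the Dsg3 call only among the junction genes. The block also left 1 hemidesmosome gene of 2 called lower, 2 tight junction genes of 3 and 3 other desmosome and plakin genes of 4. Pkp3 and Dsc2 had the fewest UMIs of the 10 genes, 100 and 211 in all.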
